A study of Mus musculus with 6 samples.

Results

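The 44 genes described here carry out DNA replication and mitosis, and they were read in cultured primary mouse mammary epithelial cells, sorted as luminal, that were given EFNA3 protein or none. They were taken by gene symbol from a deposited table of 19739 genes and fall into 20 replication genes, Mcm2 to Cdt1, and 24 mitosis genes, Mki67 to Anln. All 44 were found, and all 44 passed the filter on low values, which kept 16394 genes with a log2 value of 3.32 or more, that is a linear value of 10, in 3 or more libraries.

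The EFNA3 group held 3 libraries of wild-type cells that received 1 µg/ml EFNA3 protein for 24 hours without serum, and the control group held 3 libraries of wild-type cells at 0 µg/ml. EFNA3 (ephrin-A3) belongs to the cell surface ligands that bind Eph receptors. Before treatment, the cells of both groups had been purified by flow cytometry, grown with serum, EGF, FGF2, heparin and the ROCK inhibitor Y-27632, and deprived of serum for 12 hours. The labels do not say whether the libraries of a group came from separate animals or cultures, so each p-value rests on the spread among these samples alone, and that spread may be technical. The labels call the cells mammary epithelial cells. All 13 of 13 luminal epithelial markers had values, with a summed level of 16.62 to 16.83 in EFNA3 libraries and 16.57 to 16.64 in control libraries (log2). Basal and myoepithelial markers, 11 of 11, summed to 17.00 to 17.07 in EFNA3 libraries and 16.91 to 17.00 in control libraries. The basal sum rested mostly on the keratin genes Krt14, at 16.36 to 16.44 in EFNA3 and 16.21 to 16.36 in control libraries, and Krt5, at 14.90 to 15.03 in EFNA3 and 14.90 to 14.94 in control libraries. The contractile genes Cnn1 and Myh11 were below the filter, and the other 9 basal markers passed it. Oxtr read 13.11 to 13.43 in EFNA3 and 13.41 to 13.47 in control libraries, and Trp63 11.72 to 11.76 and 11.73 to 11.82. The contractile genes Mylk and Acta2 read 8.44 to 9.21 and 7.71 to 7.93 in EFNA3 libraries. In control libraries they read 9.27 to 9.46 and 7.66 to 7.88. Tagln read 4.17 to 5.20 in EFNA3 and 5.12 to 5.32 in control libraries. Several basal markers were thus high in cells sorted as luminal, so the markers do not show cells of a purely luminal kind. The basal sum lay above the luminal sum in both groups. The sums cover 11 and 13 genes and were not taken per length, so their order measures no share of cells. Which cells carried the basal transcripts was not tested.

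A dividing cell first licenses its replication origins by loading the Mcm2 to Mcm7 helicase, then fires them in S phase with polymerases, the sliding clamp and a supply of nucleotides. It next condenses and separates its chromosomes under the control of cyclin B with Cdk1, the Aurora and Polo kinases and the spindle checkpoint. Replication genes are known targets of E2F factors, released at the G1 to S transition, and mitosis genes are known to be read later in the cycle through promoters that carry a CHR element and CCAAT boxes. In the mammary gland luminal progenitors are among the cells that divide during growth and pregnancy. In bulk samples a different share of dividing cells and a different amount of transcript per dividing cell cannot be told apart.

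No replication or mitosis gene passed the test for a difference between EFNA3 and control cells. By limma's moderated test with Benjamini-Hochberg adjustment over all 16394 genes, 0 of 44 members passed 0.05, as did 0% of all tested genes, and the smallest adjusted p of any gene was 0.550. At an unadjusted p under 0.05 the count was 0 of 44, where 3.87% of all tested genes were higher and 2.86% were lower. The smallest unadjusted p among the members was 0.0761, for Tyms. Group means were higher with EFNA3 for 13 of 20 replication genes and 13 of 24 mitosis genes, and 50.8% of all tested genes were higher. The median log2 difference was 0.04 over the replication genes, 0.02 over the mitosis genes and 0.00 over all tested genes.

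The intervals of this fit limit the size of a difference between these libraries. Since the spread may be technical, they set no limit across animals or cultures. They also depend on the model: with a block on description numbers Cenpf differed by -0.64 and Mki67 by -0.49. Differences ran from -0.16 to 0.19 over the replication genes and from -0.36 to 0.39 over the mitosis genes, on the log2 scale. The 95% confidence interval lay inside -1 to 1 for all 44 members and inside -0.5 to 0.5 for 18 of 20 replication genes and 11 of 24 mitosis genes. Of all 16394 tested genes, 13928 lay inside -1 to 1 and 9418 inside -0.5 to 0.5. The farthest bound of a member from no difference was -0.90, for Cenpf. Smaller shifts of single genes could not be told from the spread between libraries.

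**Figure D1:**
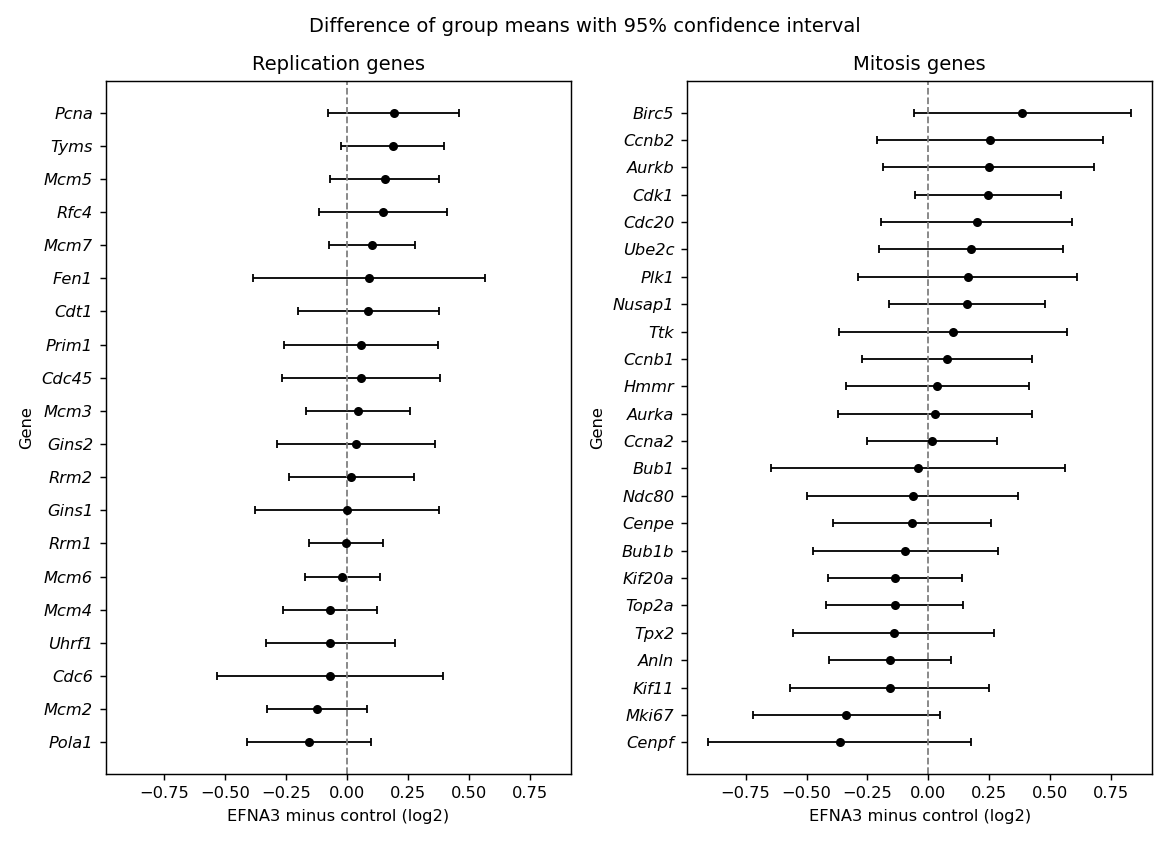
Difference of the group means, EFNA3 minus control (log2), for each replication gene (left) and mitosis gene (right), with bars for the 95% confidence interval of limma's fit. All 44 intervals cross 0, and those of mitosis genes are the wider ones, with a median SE of 0.17 against 0.11 for replication genes.

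The helicase genes Mcm2 to Mcm7 code for the ring that unwinds DNA at the fork, each subunit present once in the ring. Mcm2 read 9.31, 9.34 and 9.36 in EFNA3 replicates 1, 2 and 3, against 9.61, 9.38 and 9.39 in control replicates 1, 2 and 3. All 3 EFNA3 values lay below all 3 control values, though control replicate 1 alone stood far above the rest, and the difference was -0.12 (SE 0.09) with an adjusted p of 0.58 by limma. No other member was lower without overlap, so this was 1 of 44, against 7.45% of all tested genes.

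Mcm4 and Mcm6 differed little. Mcm4 read 10.07, 10.08 and 10.15 with EFNA3 and 10.31, 10.06 and 10.14 in controls, and Mcm6 10.98, 10.91 and 10.87 with EFNA3 and 10.98, 10.91 and 10.94 in controls. The groups overlapped in both genes, with differences of -0.07 (SE 0.09) and -0.02 (SE 0.07), and again control replicate 1 was the highest value of Mcm4.

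Mcm3, Mcm5 and Mcm7 had group means above those of controls. Mcm5 read 8.64, 8.64 and 8.47 with EFNA3 and 8.35, 8.49 and 8.44 in controls, a difference of 0.15 (SE 0.10), and EFNA3 replicate 3 lay among the controls. Mcm7 read 10.90, 10.76 and 10.90 with EFNA3 and 10.72, 10.85 and 10.69 in controls, a difference of 0.10 (SE 0.08). For Mcm3 the values were 9.21, 9.27 and 9.14 with EFNA3 and 9.05, 9.29 and 9.15 in controls, and the difference was 0.04 (SE 0.09). Averaged over the 6 subunits, EFNA3 replicates 1, 2 and 3 stood at 0.03, 0.01 and -0.003 from the control mean, and control replicates 1, 2 and 3 stood 0.02, 0.01 and -0.03 from it, so the EFNA3 and control libraries overlapped.

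Of the 20 replication genes, 17 had a promoter in the RefSeq table for GRCm38.p6, each running from 250 bases before to 50 after the start. The E2F motif was searched on both strands as TTTGGCGC, TTTCGCGC, TTTCCCGC or TTTGCCGC, with overlapping matches counted separately. It was found in 8 of 17 replication promoters (Mcm3, Mcm5, Mcm6, Mcm7, Cdc6, Pola1, Uhrf1 and Cdt1), in 1 of 20 mitosis promoters (Cdk1) and in 2.6% of 27025 genes with a promoter. A match describes the letters only. Mcm6 had 3 matches, the most of the members, and Mcm3 was among 3 helicase genes with 2; both are shown, 5′ to 3′ along the gene, so that the element can be seen, with the matches in capitals. In Mcm6 (chr1:128359656-128359955, minus strand) matches begin 110, 106 and 47 bases before the start, the first 2 overlapping. In Mcm3 (chr1:20820263-20820562, minus strand) they begin 19 and 38 bases after it.
Mcm6: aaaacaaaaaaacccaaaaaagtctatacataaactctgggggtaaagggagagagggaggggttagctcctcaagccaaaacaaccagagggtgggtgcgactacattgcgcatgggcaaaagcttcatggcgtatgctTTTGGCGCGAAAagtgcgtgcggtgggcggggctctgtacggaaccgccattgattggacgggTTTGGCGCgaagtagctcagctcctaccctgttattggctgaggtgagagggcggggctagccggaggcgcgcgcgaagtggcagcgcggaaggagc
Mcm3: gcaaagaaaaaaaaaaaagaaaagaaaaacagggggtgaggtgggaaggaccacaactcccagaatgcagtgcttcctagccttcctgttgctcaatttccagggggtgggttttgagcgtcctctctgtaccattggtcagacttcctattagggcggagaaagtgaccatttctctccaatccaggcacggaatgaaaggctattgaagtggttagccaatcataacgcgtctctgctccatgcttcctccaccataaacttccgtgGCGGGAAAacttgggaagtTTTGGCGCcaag

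Origin factors overlapped between the groups. Cdc6 and Cdt1, which load the helicase, differed by -0.07 (SE 0.20) and 0.09 (SE 0.13). Cdc6 had the widest range of the replication genes over the 6 libraries, 0.66, with 6.05, 6.26 and 6.09 with EFNA3 and 6.53, 6.20 and 5.87 in controls. Its highest and lowest values were both controls. Cdc45, Gins1 and Gins2, which join the helicase when an origin fires, differed by 0.06 (SE 0.14), 0.00 (SE 0.17) and 0.04 (SE 0.14). Cdc45 was nearly flat, running from 6.42 to 6.52 over all libraries.

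Among polymerase and clamp genes, Pcna, the sliding clamp, read 10.97, 10.55 and 10.51 in EFNA3 replicates 1, 2 and 3, against 10.54, 10.49 and 10.42 in control replicates 1, 2 and 3. EFNA3 replicate 1 stood apart from the other 5 libraries, which lay within 10.42 to 10.55, and the difference was 0.19 (SE 0.12) with an adjusted p of 0.55 by limma. Without EFNA3 replicate 1 the Pcna difference was 0.05. Pola1, the catalytic subunit of the priming polymerase, read 8.37, 8.63 and 8.54 with EFNA3 and 8.76, 8.72 and 8.53 in controls, a difference of -0.16 (SE 0.11). Its primase partner Prim1 differed by 0.06 (SE 0.14), the clamp loader subunit Rfc4 by 0.15 (SE 0.12) and the flap endonuclease Fen1 by 0.09 (SE 0.21). Fen1 read 5.11, 5.37 and 5.26 with EFNA3 and 5.06, 5.17 and 5.24 in controls, and its groups overlapped. Uhrf1, which guides maintenance DNA methylation at the fork, differed by -0.07 (SE 0.12).

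Genes of nucleotide supply included the member with the smallest p. Tyms, thymidylate synthase, read 9.03, 8.97 and 9.11 in EFNA3 replicates 1, 2 and 3, against 8.93, 8.87 and 8.74 in control replicates 1, 2 and 3. All 3 EFNA3 values were above all 3 control values, with 0.19 (95% confidence interval -0.02 to 0.40) as the difference and an adjusted p of 0.55 by limma. It was the only 1 of 44 members higher without overlap, against 8.53% of all tested genes. Rrm1 and Rrm2, the large and small subunits of ribonucleotide reductase, differed by -0.01 (SE 0.07) and 0.02 (SE 0.11), and Rrm1 ranged over only 0.10 across the 6 libraries.

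**Figure D2:**
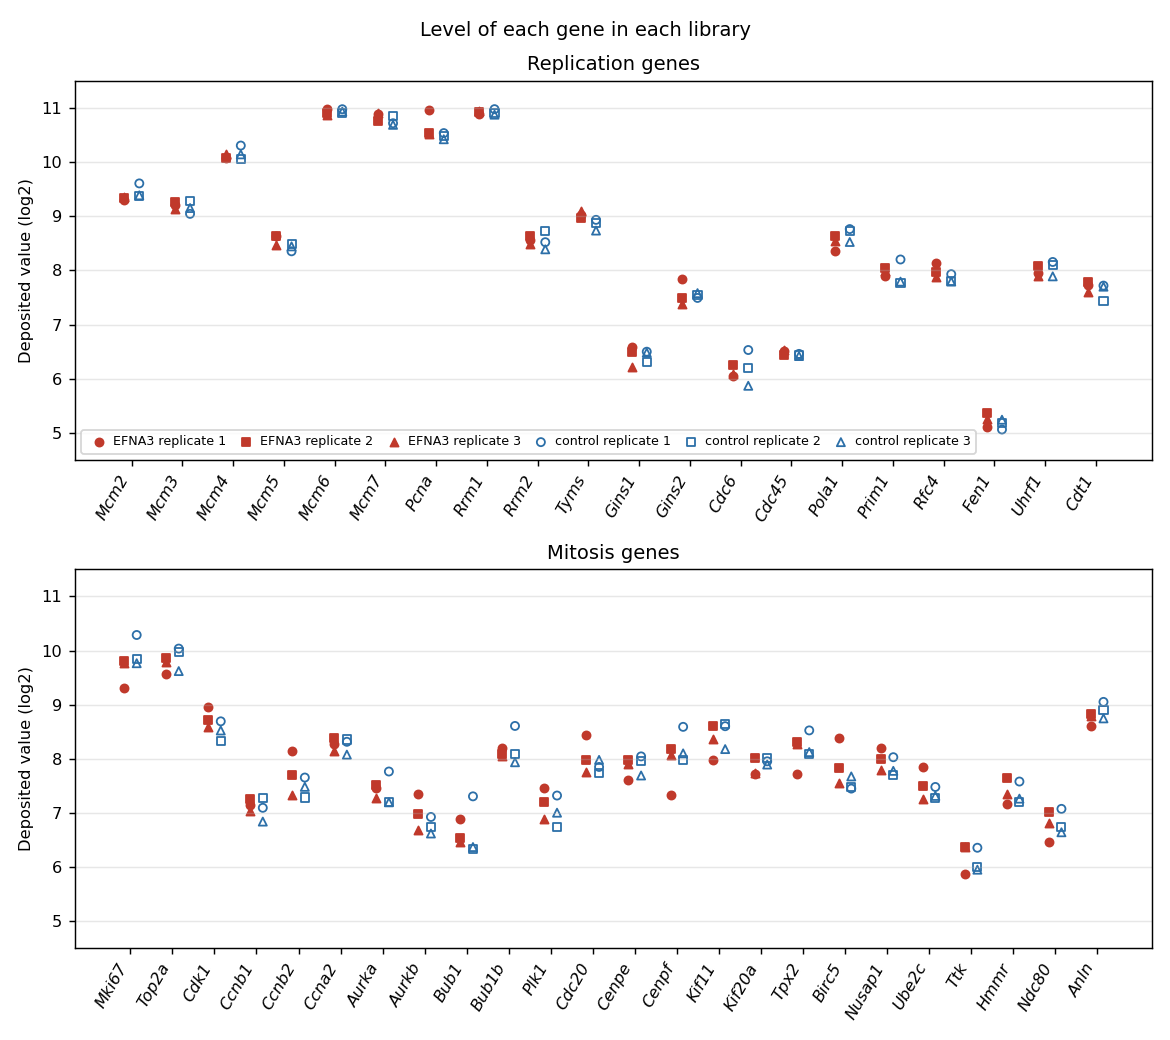
Deposited log2 value of each replication gene (top) and mitosis gene (bottom) in each library, filled red symbols for EFNA3 replicates and open blue symbols for control replicates. Replication genes ran tightly, with a median range of 0.33 over the 6 libraries, and mitosis genes more widely, with a median range of 0.63; symbols of the groups intermix in all genes but Tyms and Mcm2.

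Transcript levels of different members were compared only per length, as the deposited value less the log2 of the longest annotated transcript in kilobases. On that scale Pcna was the highest member, at 10.07 in EFNA3 and 9.88 in control cells, above 88.3% of tested genes in controls. Mcm7 followed at 9.29 in EFNA3 and 9.19 in control cells, and Mcm6 at 8.80 and 8.82. In controls 6 of 20 replication genes lay above the middle of all tested genes by this measure, and 0 of 24 mitosis genes did. Top2a, Cdc20 and Ccnb2 were the highest mitosis genes in controls, at 7.49, 7.01 and 6.86 log2 per kilobase, and Ttk the lowest at 4.58. The order leans on the length used. Per kilobase of coding sequence, a measure added after the data were seen, the highest mitosis genes were Birc5, Cdk1 and Ube2c. A coding length was found for 13049 of 16394 tested genes, too few to place the members among all of them on that scale, so that comparison is void.

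The mitosis genes begin with the proliferation marker Mki67, which coats mitotic chromosomes. Mki67 read 9.30, 9.82 and 9.78 in EFNA3 replicates 1, 2 and 3, against 10.29, 9.85 and 9.77 in control replicates 1, 2 and 3. Its lowest value was EFNA3 replicate 1 and its highest control replicate 1, while the other 4 libraries lay within 9.77 to 9.85. The difference was -0.34 (95% confidence interval -0.72 to 0.05), with an adjusted p of 0.55 by limma. Without EFNA3 replicate 1 it was -0.17, and without control replicate 1 it was -0.18. Top2a, the topoisomerase that untangles sister chromatids, read 9.58, 9.85 and 9.78 with EFNA3 and 10.04, 9.97 and 9.62 in controls, a difference of -0.14 (SE 0.12).

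Cyclins and Cdk1 drive entry into mitosis. Cdk1 read 8.96, 8.72 and 8.59 with EFNA3 and 8.69, 8.33 and 8.52 in controls, a difference of 0.25 (SE 0.13). Ccnb2 read 8.15, 7.71 and 7.32 with EFNA3 and 7.65, 7.28 and 7.48 in controls, a difference of 0.25 (SE 0.21), and its highest value was EFNA3 replicate 1. The Ccnb2 difference was 0.04 with that library left out and 0.46 with EFNA3 replicate 3 left out. The other B cyclin, Ccnb1, differed by 0.08 (SE 0.15) and the S and G2 phase cyclin Ccna2 by 0.02 (SE 0.12). The groups overlapped in all 4 genes.

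Of the 24 mitosis genes, 20 had a promoter in the same RefSeq table. The CHR motif, searched as TTTGAA or TTTAAA on both strands, was found in 18 of 20 mitosis promoters, 6 of 17 replication promoters and 30.6% of genes with a promoter. CCAAT was found in 16 of 20, 12 of 17 and 41.1%, and both in the same promoter in 15 of 20, 5 of 17 and 12.2%. Top2a, with 8 matches of the 2 kinds, and Ube2c, with 7, had the most and are shown with matches in capitals. In Top2a (chr11:99024140-99024439, minus strand) the CHR letters lie 179 and 23 bases before the start, and in Ube2c (chr2:164769679-164769978, plus strand) they lie 29 bases before it. Both promoters held 6 CCAAT matches, counting both strands, and in Ube2c those at 186 and 183 bases before the start overlap.
Top2a: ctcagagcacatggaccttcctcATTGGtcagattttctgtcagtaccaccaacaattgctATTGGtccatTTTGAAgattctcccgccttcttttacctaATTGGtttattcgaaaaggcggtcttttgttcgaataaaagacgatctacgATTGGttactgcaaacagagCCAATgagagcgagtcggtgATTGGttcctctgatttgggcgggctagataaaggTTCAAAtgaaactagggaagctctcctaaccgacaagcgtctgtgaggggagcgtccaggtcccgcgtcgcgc
Ube2c: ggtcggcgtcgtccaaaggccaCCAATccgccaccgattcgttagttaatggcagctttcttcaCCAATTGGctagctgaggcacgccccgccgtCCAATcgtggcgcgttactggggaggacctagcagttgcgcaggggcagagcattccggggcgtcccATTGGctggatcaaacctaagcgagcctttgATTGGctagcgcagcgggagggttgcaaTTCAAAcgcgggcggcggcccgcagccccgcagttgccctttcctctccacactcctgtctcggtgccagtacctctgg

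Mitotic kinases did not separate the groups. Aurora B, Aurkb, the kinase of the chromosomal passenger complex, read 7.35, 6.98 and 6.68 with EFNA3 and 6.92, 6.73 and 6.62 in controls, a difference of 0.25 (SE 0.19). Aurora A, Aurka, which acts at spindle poles, differed by 0.03 (SE 0.18), and the Polo-like kinase Plk1 by 0.16 (SE 0.20). The checkpoint kinase gene Bub1 read 6.89, 6.54 and 6.46 with EFNA3 and 7.31, 6.34 and 6.37 in controls. Control replicate 1 was the highest of the 6 and the difference was -0.04 (SE 0.27), with the largest SE of the members. Bub1b, its relative in the checkpoint complex, differed by -0.09 (SE 0.17), and Ttk, the kinase that starts the checkpoint, by 0.10 (SE 0.21). EFNA3 replicate 1 was the lowest library for Ttk, at 5.88, while the other EFNA3 libraries, at 6.36 and 6.37, were the highest.

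Birc5, survivin, the partner of Aurora B, had the largest positive difference of the 44. It read 8.38, 7.82 and 7.56 in EFNA3 replicates 1, 2 and 3, against 7.45, 7.48 and 7.67 in control replicates 1, 2 and 3. EFNA3 replicates 1 and 2 lay above all controls and EFNA3 replicate 3 among them, with a difference of 0.39 (95% confidence interval -0.06 to 0.83) and an adjusted p of 0.55 by limma. Without EFNA3 replicate 1 it was 0.16. The anaphase genes Cdc20 and Ube2c, which activate and feed ubiquitin to the anaphase-promoting complex, differed by 0.20 (SE 0.17) and 0.17 (SE 0.17). Cdc20 read 8.43, 7.98 and 7.75 with EFNA3 and 7.85, 7.73 and 7.98 in controls, with EFNA3 replicate 1 the highest. With that library left out, Cdc20 and Ube2c both differed by 0.01.

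Among kinetochore and spindle genes, Cenpf, a large kinetochore protein, read 7.33, 8.18 and 8.07 in EFNA3 replicates 1, 2 and 3, against 8.59, 7.98 and 8.10 in control replicates 1, 2 and 3. EFNA3 replicate 1 was the lowest library and control replicate 1 the highest, and the difference was -0.36 (95% confidence interval -0.90 to 0.18). Leaving out EFNA3 replicate 1 gave -0.10, and leaving out control replicate 1 gave -0.18. The kinetochore motor Cenpe differed by -0.07 (SE 0.14) and the microtubule-binding kinetochore protein Ndc80 by -0.06 (SE 0.19). The spindle motor Kif11 differed by -0.16 (SE 0.18), the cytokinesis motor Kif20a by -0.14 (SE 0.12) and the spindle assembly factor Tpx2 by -0.14 (SE 0.18). With EFNA3 replicate 1 left out, Kif11 stood at 0.01, Kif20a at -0.09 and Tpx2 at 0.05. Nusap1 and Hmmr, which bind spindle microtubules, differed by 0.16 (SE 0.14) and 0.04 (SE 0.17), and the contractile ring scaffold Anln by -0.16 (SE 0.11), with 8.61, 8.82 and 8.79 with EFNA3 and 9.05, 8.90 and 8.75 in controls.

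**Figure D3:**
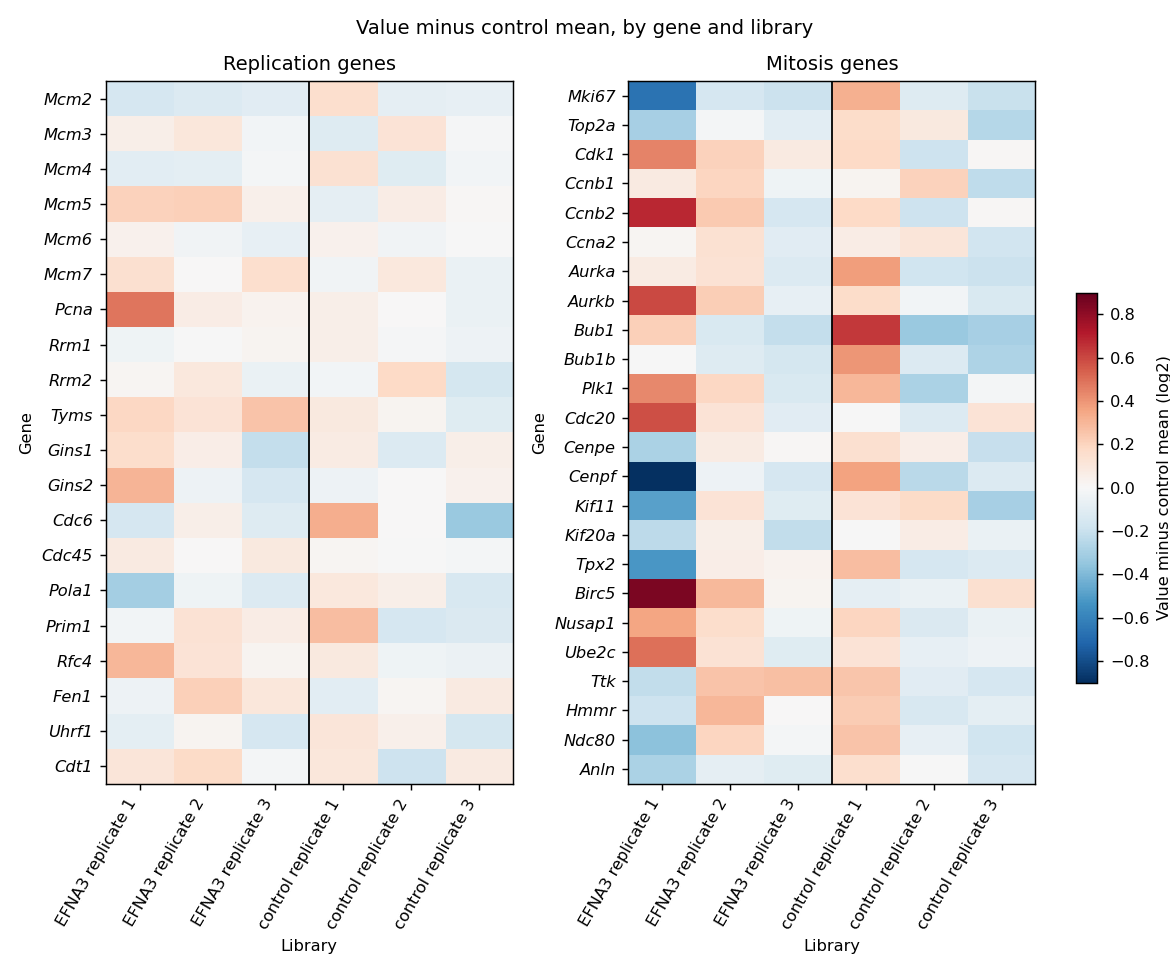
Value of each gene in each library minus that gene's control mean (log2), with EFNA3 libraries left of the line and control libraries right of it. In the mitosis genes the strongest colours fall in EFNA3 replicate 1, from -0.90 for Cenpf to 0.84 for Birc5. Control replicate 1 is mostly red there, above the control mean in 21 of 24 genes, against 8330 of 16394 tested genes.

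Across the mitosis genes control replicate 1 read high. It was above the control mean in 21 of 24 mitosis genes, against 8330 of 16394 tested genes, and its mean over the mitosis genes was 0.20. It was the highest of the 6 libraries in 10 of 24, against 17.3% of all tested genes. Control replicates 2 and 3 averaged -0.08 and -0.12. The 3 EFNA3 libraries averaged 0.01, 0.10 and -0.07, so all 3 lay within the range of the controls. For the replication genes the EFNA3 libraries averaged 0.06, 0.05 and -0.01 and the controls 0.06, -0.01 and -0.06. The median mitosis difference was 0.13 without control replicate 1 and -0.07 without control replicate 3, against 0.02 with all libraries.

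EFNA3 replicate 1 was the highest library for 8 of 24 mitosis genes (33.3%) and the lowest for 11 of 24 (45.8%), where the shares over all tested genes were 35.2% and 33.2%. Among replication genes it was the highest for 5 of 20 and the lowest for 2 of 20. Among mitosis genes EFNA3 replicate 2 was the highest for 2 and the lowest for 0, and EFNA3 replicate 3 for 1 and 1. With EFNA3 replicate 1 left out, the mitosis differences ran from -0.17 for Bub1 to 0.26 for Ttk, with 17 of 24 higher and 7 lower. When limma estimated a weight for each library, it gave EFNA3 replicate 1 a weight of 0.199 and the other libraries 1.10 to 2.16.

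The members' differences were ordered by the length of their coding sequences. In the 12 mitosis genes with the longer coding sequences, 2235 to 9531 nt, 10 were lower and 2 higher with EFNA3, with a median of -0.14. In the 12 shorter ones, 420 to 1926 nt, 11 were higher and 1 lower, with a median of 0.17. The same split put EFNA3 replicate 1 at -0.32 in the longer and 0.35 in the shorter genes. EFNA3 replicate 2 stood at 0.03 and 0.18 and EFNA3 replicate 3 at -0.08 and -0.07. Among replication genes the 10 longer, 1767 to 4395 nt, had 7 lower and a median of -0.04, and the 10 shorter, 555 to 1698 nt, had 10 higher and a median of 0.07.

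Across members, Spearman's correlation of the log2 difference with coding length was -0.85 over the 24 mitosis genes and -0.62 over the 20 replication genes. No value over all tested genes is given on this scale, since too few have a coding length. The points share the same 6 libraries and are not independent replicates. Without EFNA3 replicate 1 it was -0.57 and -0.35. With the longest transcript, known for 15972 tested genes, it was -0.77 over the mitosis genes, -0.56 over the replication genes and -0.44 over all genes with a length. Without EFNA3 replicate 1 those values were -0.25, -0.36 and -0.26, so the relation was present across the table and weaker without that library. A correction that took transcript length and GC share out of each library gave a difference of -0.15 for Cenpf, -0.13 for Mki67, 0.12 for Pcna, 0.31 for Cdk1 and 0.39 for Birc5. After it the correlation was -0.78 over mitosis genes and -0.38 over replication genes. Birc5 and Cdk1 have a long annotated transcript, 3334 and 4375 nt, with a coding sequence of 420 and 891 nt, and the correction used the transcript length. Other libraries also varied with length, read as deviations from each gene's mean over the 6 libraries, which ties the libraries together. Over mitosis genes the correlation with coding length was -0.77, -0.06 and 0.57 in EFNA3 replicates 1, 2 and 3. In control replicates 1, 2 and 3 it was 0.70, 0.51 and 0.09. With transcript length over all genes with a length, it was -0.51, 0.02 and 0.15 in EFNA3 and 0.31, 0.35 and 0.08 in control replicates. What part of the members' differences comes with length in any library was not tested beyond these values.

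**Figure D4:**
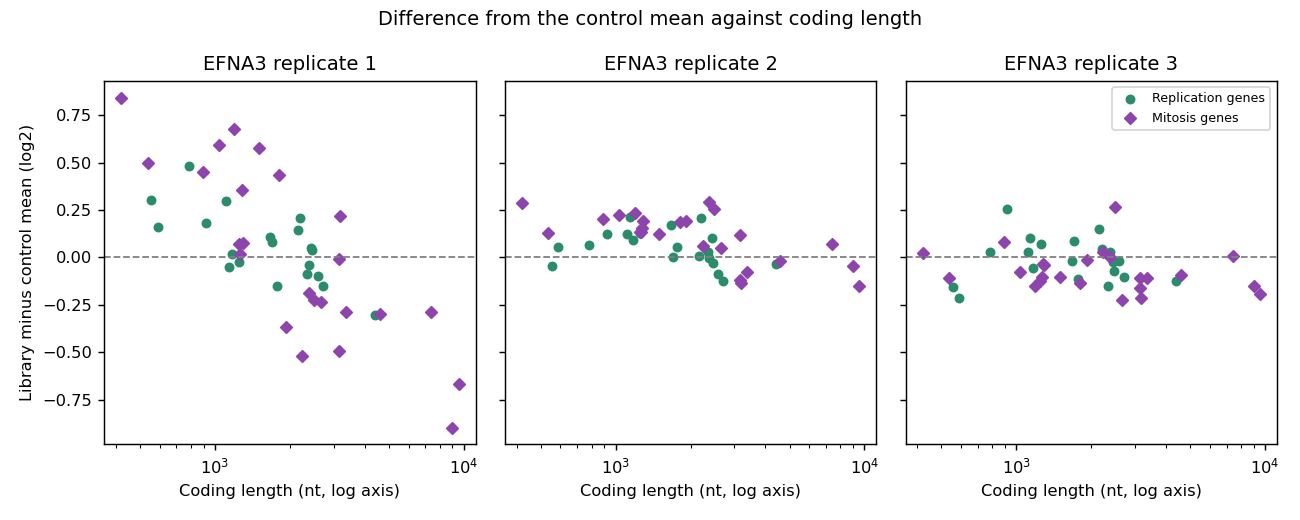
Value minus control mean (log2) against coding length (nt, log axis) for replication genes (circles) and mitosis genes (diamonds), 1 panel per EFNA3 library. EFNA3 replicate 1 slopes down from Birc5 at 0.84 to Cenpf at -0.90, with a Spearman correlation of -0.75 over the 44 genes. It was -0.55 in EFNA3 replicate 2 and -0.27 in EFNA3 replicate 3. The panels all subtract the same control mean, which carries a length relation of its own. Taken instead from each gene's mean over the 6 libraries, the correlation was -0.72, -0.05 and 0.37 in EFNA3 replicates 1, 2 and 3. In control replicates 1, 2 and 3 it was 0.59, 0.43 and 0.05.

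The rest of the cell cycle machinery was read from lists of other genes. Further genes of origins, polymerases and clamp loading, 36 tested, had 2 higher and 2 lower at an unadjusted p under 0.05, against 3.87% higher and 2.86% lower of all tested genes, with 0 past adjustment by limma and a median difference of 0.04. Named by smallest p, Rpa2 and Rpa3, subunits of the complex that coats unwound DNA, differed by 0.33 (SE 0.12) and 0.46 (SE 0.17), and the fork protection gene Timeless by -0.34 (SE 0.12). Each of these 3 had no overlap between groups. In this list 4 of 36 genes were higher and 2 lower without overlap, against 8.53% and 7.45% of all tested genes. All carried an adjusted limma p of 0.55.

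Further spindle, kinetochore and cytokinesis genes, 40 tested, had 1 higher and 0 lower at an unadjusted p under 0.05, against 3.87% and 2.86% of all tested genes. They had 0 past adjustment by limma and a median of 0.01. The higher gene was Cks2, a small partner of Cdk1, with 7.24, 7.29 and 6.87 in EFNA3 libraries and 6.61, 6.76 and 6.37 in control libraries, a difference of 0.55 (SE 0.17). The kinetochore gene Spc24 differed by 0.49 (SE 0.22) and the condensin gene Ncaph by 0.21 (SE 0.09), both with no overlap. In this list 5 of 40 genes were higher and 0 lower without overlap, against 8.53% and 7.45% of all tested genes.

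G1 cyclins, Cdks and E2F activators, 19 tested, had 0 higher and 0 lower at an unadjusted p under 0.05, against 3.87% and 2.86% of all tested genes. They had 0 past adjustment by limma and a median of -0.03. Foxm1, the activator of late cell cycle genes, differed by -0.28 (SE 0.17), the phosphatase Cdc25a by -0.14 (SE 0.09) and cyclin D2, Ccnd2, by -0.33 (SE 0.24). Cell cycle inhibitors and quiescence genes, 23 tested, had 1 higher and 0 lower at an unadjusted p under 0.05, against the same shares. They had 0 past adjustment by limma and a median of 0.02. The higher gene was Cdkn2b, an inhibitor of Cdk4 and Cdk6, at 0.28 (SE 0.11), and its groups overlapped. Its neighbour Cdkn2a differed by 0.31 (SE 0.15) and the pocket protein gene Rbl1 by -0.24 (SE 0.11).

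DNA damage checkpoint and recombination genes, 20 tested, had 0 higher and 0 lower at an unadjusted p under 0.05, against 3.87% and 2.86% of all tested genes. They had 0 past adjustment by limma. Group means were lower for 13 of 20, where 8073 of 16394 tested genes were lower, and the median was -0.08. The checkpoint kinases Atm and Atr, both long genes, differed by -0.61 (SE 0.30) and -0.25 (SE 0.15), and the stress gene Gadd45a by 0.18 (SE 0.11). Atm read 9.13, 10.36 and 10.42 in EFNA3 libraries and 10.69, 10.67 and 10.40 in control libraries, so EFNA3 replicate 1 stood apart. Averaged over the list, EFNA3 replicate 1 stood at -0.22, the other EFNA3 libraries at -0.01 and -0.05, and the controls at 0.08, 0.01 and -0.10.

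**Figure D5:**
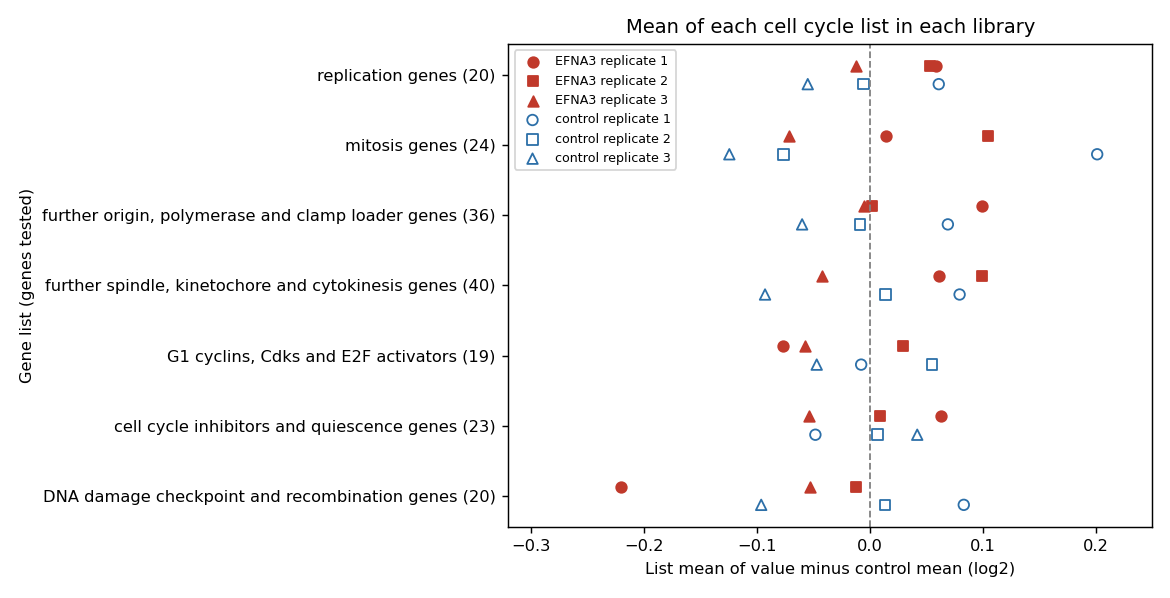
Mean over each cell cycle list of the value minus the gene's control mean (log2), filled red symbols for EFNA3 replicates and open blue symbols for control replicates. The groups overlap in the replication and mitosis lists, and the point farthest left is EFNA3 replicate 1 in the DNA damage list, at -0.22.

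Markers of other cells that could divide in such cultures were read as well, and 0 passed adjustment by limma. Fibroblast markers, 8 of 9 with values, summed to 10.86 to 10.99 in EFNA3 libraries and 10.97 to 11.03 in control libraries (log2). Gene by gene their median difference was 0.36, with a mean over the list of 0.45, 0.40 and 0.03 in EFNA3 replicates 1, 2 and 3, against 0.32, -0.26 and -0.05 in control replicates 1, 2 and 3. Endothelial markers, 5 of 7, summed to 8.32 to 8.45 and 8.36 to 8.55 in EFNA3 and control libraries, and Cdh5, Kdr and Tek were below the filter. That sum rested almost wholly on Pecam1, at 8.20 to 8.32 in EFNA3 and 8.17 to 8.38 in control libraries. Vwf read 3.69 to 3.92 and 3.48 to 4.27. Immune markers, 4 of 9, summed to 7.43 to 7.90 and 7.35 to 7.74 in EFNA3 and control libraries, and Ptprc, Cd3e, Adgre1 and Itgam were not analysed here. The immune sum rested mostly on Cd68, at 7.02 to 7.19 in EFNA3 and 7.02 to 7.49 in control libraries. The part of these cells in the members' levels was not tested. Annotated exons of 12 of 44 members overlap those of another gene, 11 on the opposite strand, and Pcna, Tyms, Ccnb1 and Ccnb2 have named pseudogenes, so reads of these genes may be shared where the counting did not separate them.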

How the data were processed

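RNA was sequenced from 6 libraries, 3 EFNA3 and 3 control, made by stranded mRNA preparation, as the labels' protocols state. Trim Galore, Subread, featureCounts and build mm39 are named, per the submitters' processing notes. For versions, annotation, strand setting and the step to log2, nothing is given in the sources used here. As for scale, the deposited values were taken as log2 because they were not whole and ran from -0.79 to 18.11. Their 6 sorted columns differed by at most 0.00302, so all libraries share 1 distribution, depth is unknown, and a shift of all genes could not be seen. Columns were matched to samples by their description label, and none was left over.

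The members and lists were chosen with earlier results of these data known. Limma 3.58.1 in R 4.3.3 was fitted to all 16394 tested genes, using a mean-variance trend, without a block or an added pseudocount. Standard errors, intervals and p-values come from that fit; an exact permutation test of 3 against 3 cannot go below 0.1. The named genes were Mcm2 to Mcm7, the 5 members of each list with the smallest p, the 3 highest and the lowest per kilobase, and 3 per further list; other members are given briefly. Lengths and GC shares came from GENCODE for GRCm38, joined on symbols, with a transcript length found for 97.4% of the genes tested. The fit was tested on simulated data first, with independent noise and 200 changed genes. At an adjusted p under 0.05 by limma it recovered 43.2% of genes changed by 0.5, 78.4% at 1 and 92.9% at 2 (log2). Those data held no outlying library and no length relation, so these shares need not carry over to the libraries here. Alternatives covered the filter, pseudocount, scaling, variance model, blocks, length and each left-out library.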

Additional observations from a re-analysis of the deposited data

How the results depend on the processing

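The count of members past the adjusted threshold was 0 under each alternative run. The count at an unadjusted p under 0.05 was 0 in the fit with all libraries, against 6.73% of all tested genes. It was 1 (Tyms) with the length and GC correction, against 7.82%, and 1 (Tyms) with that correction without EFNA3 replicate 1, against 4.51%. It ran from 0 to 2 as libraries were left out 1 at a time. The 2 were Birc5 and Ccnb2 without EFNA3 replicate 3, against 15.1% of all tested genes. Without control replicate 3 they were Top2a and Mki67, against 4.51%. The count of members with no overlap was 2 with all libraries, against 16% of all tested genes. It was 5 with the correction without EFNA3 replicate 1, and 4 to 11 with a library left out, where fewer samples make a gap easier to reach. The share of all tested genes was not computed under these alternatives, so the higher counts are no result about the members. With a replicate block taken from description numbers, only replicates 1 and 3 of each group add to the difference. In that fit 2 members (Mki67 and Cenpf) stood under 0.05, against 5.62% of all tested genes. The median mitosis difference was -0.11 against 0.02, and 71 of all tested genes passed adjustment. Blocking on title numbers instead left 0 members under 0.05, against 6.38%. The numbers were not taken as pairs, because the labels do not say that they mark a shared animal or culture. Deviations of same-numbered samples correlated at -0.11, 0.03 and -0.32 by title and -0.11 and -0.32 by description. These deviations were taken from the mean of each group of 3, which ties the correlations to one another, so they cannot settle the pairing. The median mitosis difference ran from -0.07 to 0.13 with a library left out. Of 747 member values under alternatives, 64 differed in sign from the value with all libraries, in 21 members, and in 63 of these that value was under 1 SE; the exception was Cdc20. Depth is unknown, so no counting limit can be given.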
